A study of Mus musculus with 6 samples.

Results

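The Tbx21 locus was examined for Ezh2 in mouse Th1 and Th2 cells. Tbx21 encodes T-bet, the T-box transcription factor that directs naive CD4 T cells to the Th1 fate and activates the interferon gamma gene. The locus is 1 gene, chosen by its name, and was taken as the window of 30 kb on chromosome 11 from 96955001 to 96985000 (mm9), on the minus strand, with the 5′ end of the gene near 96976600. Earlier results of these data were known when the gene and the window were chosen. Of the window, 8.4 kb lay upstream of that end and 21.6 kb on the transcribed side. No annotation of mm9 was used here, so the exons and the 3′ end were not placed. It was 1 of 84340 windows of this size in which at least 1 of the cell types could be tested. By gene order in the RefSeq table of GRCm38.p6, the nearest protein-coding neighbours were Osbpl7 on the side of the 3′ end and Tbkbp1 on the upstream side.

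Ezh2 is the methyltransferase of Polycomb repressive complex 2. The complex marks histone H3 at lysine 27 and keeps genes of other lineages silent. In T helper cells, silent lineage genes are known to carry this mark, and the T-bet gene is silent in Th2 cells and active in Th1 cells. Polycomb repressive complex 2 is recruited to stretches rich in CG dinucleotides, which many promoters hold.

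Naive (CD44lowCD62Lhigh) CD4+ T cells came from the spleen of C57BL/6 mice, and all cultures received antibodies to TCRβ and CD28 and 15 ng/ml IL-2. Th1 cultures also received 10 ng/ml IL-12 and an antibody to IL-4, and Th2 cultures 100 ng/ml IL-4 and an antibody to interferon gamma. The cells were stimulated for 2 days and kept for 3 more without the antibodies to TCRβ and CD28. Each cell type gave 3 libraries for chromatin immunoprecipitation and sequencing: 1 made with polyclonal antibodies against Ezh2, 1 made with rabbit IgG as the control antibody, and 1 of input DNA. Each group held 1 library, so no replicate spread could be measured, and the intervals and tests cover counting error only and compare these libraries. How far each polarised culture was a pure cell type could not be checked, because the libraries hold no expression. The deposited Ezh2 files carry different run names, so cell type and sequencing run cannot be told apart.

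The value used is the count of distinct positions, each listed interval being counted once at its midpoint. The libraries held between 9353748 and 15626355 positions, apart from the Th2 control antibody library, whose file held no position on chromosome 11 and was not analysed here. The Ezh2 libraries held 10834902 positions in Th1 and 14997378 in Th2. Fold over input is the ratio of Ezh2 to input positions of the same cell type, scaled by the positions on chromosomes 1 to 19 and X, with 0.5 added to each count. The 95% intervals are exact (Clopper-Pearson) and use the counts as they are.

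The 250 bases before the RefSeq start site of Tbx21 are shown because the highest Ezh2 counts in Th2 lay near the 5′ end. The kilobase with the most Ezh2 positions in Th2 began 0.4 kb upstream of that end. Placed at the 5′ end used for the counts, the bases shown would thus lie outside that kilobase. They are credited to RefSeq (GRCm38.p6, chr11:97115332-97115581, minus strand, a build that differs from that of the counts), and capitals mark CG dinucleotides.

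Tbx21 promoter: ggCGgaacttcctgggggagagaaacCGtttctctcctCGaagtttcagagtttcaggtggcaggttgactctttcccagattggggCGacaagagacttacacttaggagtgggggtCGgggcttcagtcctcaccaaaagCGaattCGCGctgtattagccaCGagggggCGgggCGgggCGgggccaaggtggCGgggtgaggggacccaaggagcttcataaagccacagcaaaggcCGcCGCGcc

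This stretch held 16 CG dinucleotides, where the median over 32851 RefSeq promoters of the same length was 6, and 25.4% of them held at least as many. Searched on both strands, the GC box GGGCGG occurred 3 times, 2 of them without overlap, and 32.7% of the promoters held it. GATAA, the core of a GATA site, occurred 0 times and was held by 22.6% of promoters, and the T-box half-site GGTGTGA occurred 0 times and was held by 3.33%. Absence of these letters says nothing of the factors beyond this window.

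The first comparison asked whether Ezh2 was enriched over input across the whole window. In Th1 the window held 169 Ezh2 positions, 275 input positions and 128 control antibody positions. In Th2 it held 442 Ezh2 positions and 200 input positions. Scaled to 10000000 positions per library, the Th1 window held 156.3 for Ezh2, 176.5 for input and 137.2 for the control antibody. The scaled values in Th2 were 295.4 for Ezh2 and 155.5 for input. The Th2 Ezh2 library was thus the highest of the 5, and the other 4 lay between 137.2 and 176.5. The fold over input was 1.90 in the Th2 library (95% interval 1.60 to 2.26). It was 0.887 in the Th1 library (0.727 to 1.08), a value that turned above 1 with other choices of background or scaling, at 1.01 to 1.26. The control antibody stood at 0.779-fold over the Th1 input (0.625 to 0.962). That was low for the control antibody, with a median of 1.01 over all windows of 30 kb and 94.2% at least as high.

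Over all windows of 30 kb, the median fold was 0.883 in Th1 and 0.879 in Th2. The Th1 value of Tbx21 was therefore near the middle, with 49.3% of windows at least as high, while 2.34% of windows were at least as high as Tbx21 in Th2. A window was called enriched at a Benjamini-Hochberg adjusted p below 0.05 by a one-sided exact binomial test and a fold of at least 2. This rule called 1.60% of windows in Th1, 1.98% in Th2 and 0.0309% for the control antibody. Tbx21 was called in none of these. In Th2 it passed the exact test (adjusted p = 2.35e-13) but its fold of 1.90 lay under 2. In Th1 the adjusted p was 1, by the same exact test.

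**Figure D1:**
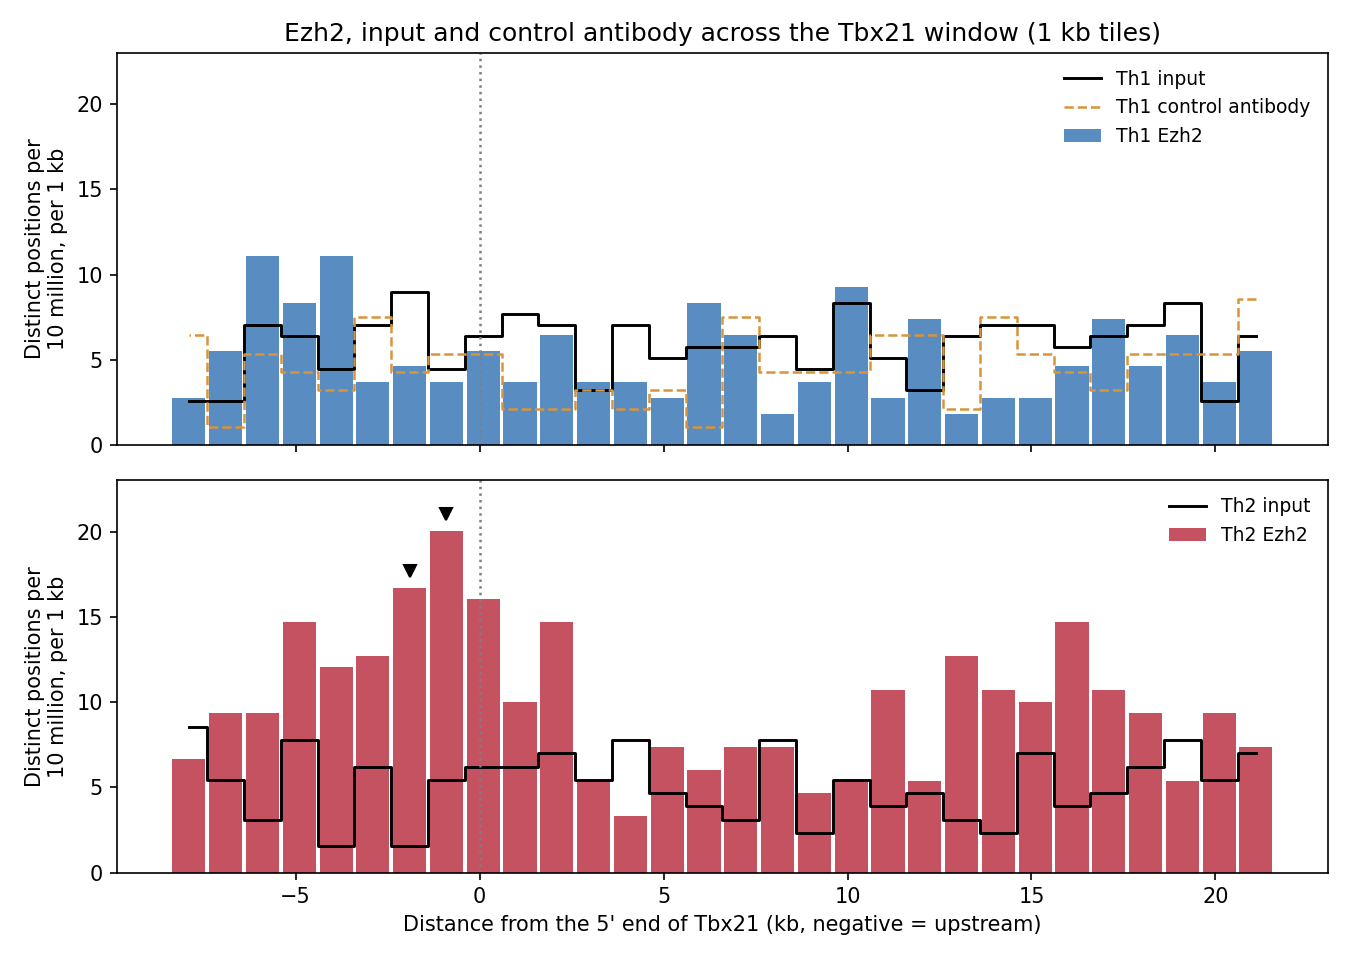
Distinct positions per 10000000 positions of each library in the 30 tiles of 1 kb across the Tbx21 window, by distance from the 5′ end (dotted line, negative values upstream). Bars are Ezh2, black lines input, the dashed line the Th1 control antibody, and triangles the 2 tiles called in Th2, of which the higher held 30 positions in Th2, while no Th1 tile held more than 12.

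Within the window, the highest Ezh2 counts in Th2 lay in tiles just upstream of the 5′ end. By fold over input, tiles of 1 kb on the transcribed side were also high in Th2. Those from 96960001, 96962001 and 96963001 reached 3.52, 4.05 and 3.725 on 5, 3 and 4 input positions. None of these was called, while the tiles called in Th2 stood at 3.50 and 8.77. In tiles of 1 kb, the Th2 Ezh2 library held between 5 and 30 positions with a median of 14, and the Th1 Ezh2 library between 2 and 12 with a median of 5. The inputs held 4 to 14 positions in Th1 (median 10) and 2 to 11 in Th2 (median 7). After scaling, Ezh2 was higher in Th2 than in Th1 in 24 of the 30 tiles. These tiles adjoin and come from the same libraries, so they are not independent, and the share over all kilobases was not counted. In Th2, 2 of 30 tiles were called, where 1.21% of all tested tiles of 1 kb were. In Th1, 0 of 27 tested tiles were called by the same exact binomial test, where 0.992% of all tested tiles were, and 1 tile had an unadjusted p below 0.05. The Th1 control antibody gave 0 calls of 27 tested, against a background of 0.00151%, with 0 tiles at an unadjusted p below 0.05.

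Both called tiles lay next to each other, from 96977001 to 96979000, between 0.4 and 2.4 kb upstream of the 5′ end. The nearer tile held 30 Ezh2 positions and 7 input positions in Th2, and 4 and 7 in Th1. Its Th2 fold was 3.50 (1.59 to 9.94, exact test, adjusted p = 0.0438), and its Th1 fold 0.865 (0.177 to 3.24). The farther tile held 25 Ezh2 and 2 input positions in Th2, and 5 and 14 in Th1. Its fold of 8.77 in Th2 was the highest of the 30 tiles (2.68 to 93.6, exact test, adjusted p = 0.00216), but it rested on 2 input positions, and the Th1 fold was 0.547 (0.145 to 1.51). Both are single kilobases with few input positions, and their calls did not hold when the tiles were moved by 500 bases, where 0 of 29 tiles were called.

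The tile of the 5′ end itself, from 96976001 to 96977000, held 24 Ezh2 and 8 input positions in Th2, and 6 and 10 in Th1. Its Th2 fold was 2.48 (1.12 to 6.64, exact test, adjusted p = 0.343) and its Th1 fold 0.892 (0.258 to 2.63), and neither was called. On the upstream side, the tile from 96979001 held 19 Ezh2 and 8 input positions in Th2, a fold of 1.97 (0.853 to 5.39). In Th1 the highest fold of the 30 tiles was 2.40 (0.897 to 7.41), at the tile from 96980001, with 12 Ezh2 and 7 input positions. The same tile held 18 Ezh2 and 2 input positions in Th2, 6.36-fold over input (1.85 to 68.8, exact test, adjusted p = 0.0520).

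A kilobase of this window held few positions, so tiles of 5 kb gave narrower intervals. The tile of 5 kb with the 5′ end ran from 96975001 to 96980000, from 1.6 kb downstream to 3.4 kb upstream of it. It held 113 Ezh2 and 33 input positions in Th2, and 23 Ezh2, 54 input and 23 control antibody positions in Th1. The Th2 fold was 2.91 (1.98 to 4.48, one-sided exact test, adjusted p = 3.43e-07), and 1.13% of all tested tiles were at least as high. The Th1 fold was 0.621 (0.360 to 1.02), and 81.8% of tiles were at least as high. The upper end of the Th1 interval lay under 2-fold. With 54 input positions, the rule calls a Th1 count of at least 76. The control antibody was 0.720-fold over the Th1 input there (0.417 to 1.18). It was called in 0 of the 6 tiles of this size, with 0 at an unadjusted p below 0.05, and in 0.00903% of all tested tiles.

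Divided at the 5′ end, the upstream side of the window held 160 Ezh2 and 58 input positions in Th2, and 55 and 70 in Th1. The Th2 fold on that side was 2.36 (1.75 to 3.26). The transcribed side held 282 and 142 in Th2, and 114 and 205 in Th1, and its Th2 fold was 1.70 (1.39 to 2.10). The Th1 folds were 1.14 upstream (0.781 to 1.64) and 0.803 on the transcribed side (0.632 to 1.01). Th2 was the higher of the 2 cell types on both sides. The upstream and transcribed sides have intervals that overlap within each cell type, and their difference was not tested.

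A further tile called in Th2 lay on the transcribed side, from 96960001 to 96965000, between 11.6 and 16.6 kb downstream of the 5′ end. It held 80 Ezh2 and 27 input positions in Th2, and 21 and 46 in Th1. The Th2 fold was 2.52 (1.63 to 4.10, exact test, adjusted p = 4.70e-04), while the Th1 fold was 0.666 (0.373 to 1.13). Between this tile and that of the 5′ end, the Th2 fold was 1.56 (0.981 to 2.56) and 1.27 (0.827 to 1.99), in order towards the gene start. The intervals of these tiles overlap those of the called tiles beside them, but at the tile of the 5′ end, whose interval began at 1.98, only barely. Overlap of intervals is not a test, and whether the stretch between the called tiles was lower was not tested.

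Of the 6 tiles of 5 kb, 2 were called in Th2, where 2.50% of all tested tiles were, and 0 in Th1, where 2.25% were, with 1 tile in Th1 at an unadjusted p below 0.05. That tile, from 96980001 to 96985000, lay 3.4 to 8.4 kb upstream. It held 42 Ezh2 and 36 input positions in Th1, 1.68-fold (1.05 to 2.70, exact test, adjusted p = 0.277), and 78 and 34 in Th2, 1.96-fold (1.30 to 3.04, exact test, adjusted p = 0.0197, under the limit of 2-fold). With the tiles moved by 2.5 kb, the tile from 96977501 to 96982500, which lay upstream of the 5′ end, was called in Th2 at 3.02-fold (2.01 to 4.78, exact test, adjusted p = 7.36e-07). Its Th1 fold was 1.15 (0.733 to 1.78). The moved tile from 96962501 was also called in Th2, at 2.11-fold (1.35 to 3.47, exact test, adjusted p = 0.0177). The one that then held the 5′ end, from 96972501 to 96977500, was not called, at 1.79-fold (1.24 to 2.65).

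**Figure D2:**
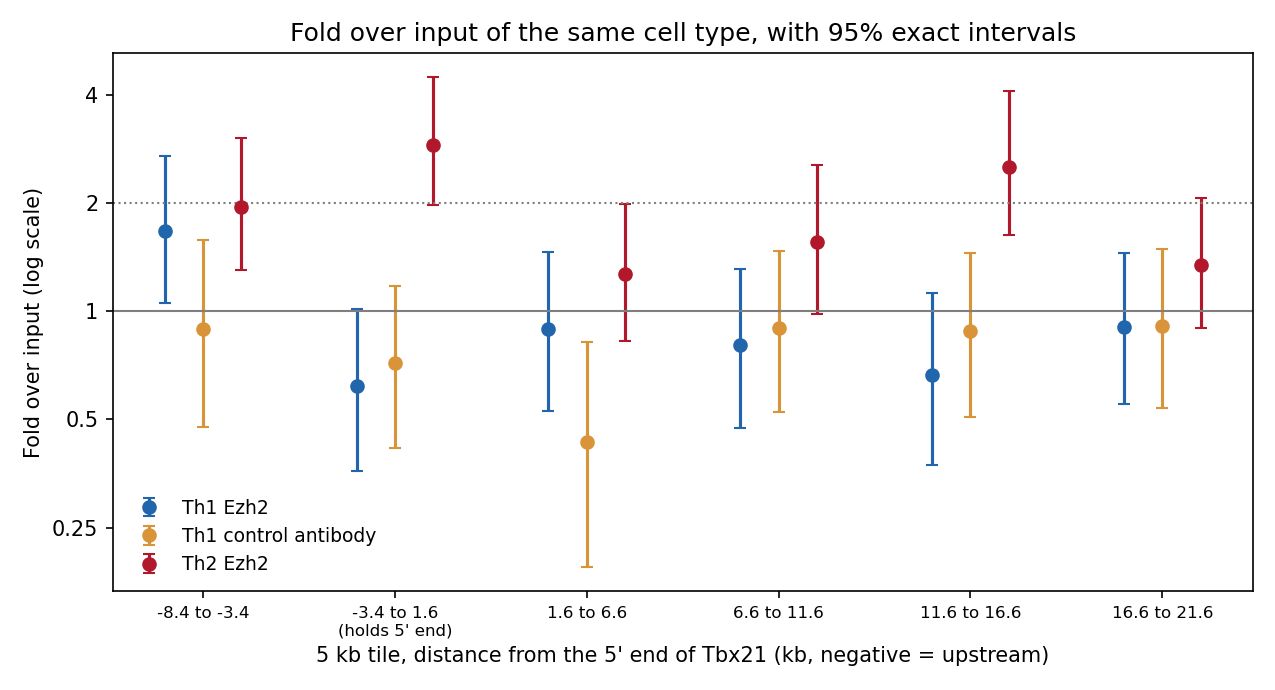
Fold over input (log scale) in the 6 tiles of 5 kb of the Tbx21 window, by distance from the 5′ end in kb, for Ezh2 in Th1 and Th2 and the control antibody in Th1. Points are folds of 1 library each and bars 95% exact intervals of counting error, with a solid line at 1-fold and a dotted line at 2-fold. Th2 lies at 2.91 in the tile of the 5′ end, where Th1 lies at 0.621.

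The second comparison asked whether Ezh2 at Tbx21 differed between Th1 and Th2. Over the whole window, scaled Ezh2 positions were 1.89-fold higher in Th2 than in Th1 (95% interval 1.58 to 2.27, two-sided exact binomial test, adjusted p = 2.70e-10 over 84195 windows). By this test 1.42% of windows were higher in Th2. The inputs lay the other way, 1.14-fold higher in Th1 than in Th2 with an interval that included 1 (0.943 to 1.37). With the input positions in the test, Ezh2 over input was 2.14-fold higher in Th2 (1.65 to 2.79, two-sided conditional exact test, adjusted p = 1.80e-05 over 84195 windows). This test was passed with Ezh2 higher in Th2 by 0.229% of windows. A ratio as far towards Th2 was found in 183 of the 84195 windows, Tbx21 included.

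At the 5 kb tile of the 5′ end, scaled Ezh2 positions were 3.49-fold higher in Th2 (2.25 to 5.83). The two-sided exact binomial test gave an adjusted p of 1.96e-07 over the 16924 tiles called in either cell type, of which 9.11% passed with more Ezh2 in Th2. Ezh2 over input was 4.69-fold higher in Th2 (2.46 to 9.40, conditional exact test, adjusted p = 9.27e-04), and 2.59% of those tiles passed in that direction. The call that admits a tile uses the same counts and favours a difference. Adjusted over all 483513 tiles tested in both cell types, without that choice, the binomial exact test gave an adjusted p of 5.61e-06, where 0.138% of tiles passed with more Ezh2 in Th2. The conditional exact test still passed as well (adjusted p = 0.0185). It did so with Ezh2 higher in Th2 in 9 tiles of the genome, 0.00186%, that of the Tbx21 5′ end among them. A ratio of folds as far towards Th2, passing or not, was found in 2007 of the 483513 tiles (0.415%), this one included. With the tiles moved by 2.5 kb, the tile that then held the 5′ end did not pass (conditional exact test, adjusted p = 0.478).

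The tile on the transcribed side from 96960001 had Ezh2 over input 3.78-fold higher in Th2 (1.87 to 8.06). Its conditional exact test passed over the called tiles (adjusted p = 0.0119) but not over all tested tiles (adjusted p = 0.161). In the other 4 tiles of 5 kb, Ezh2 over input was between 1.17-fold and 1.94-fold higher in Th2, with adjusted p between 0.691 and 1 over all tested tiles by the same exact test. Of the 2 kilobases called in Th2, the one from 96978001 passed the conditional exact test (16.0-fold, 3.0 to 218.2, adjusted p = 0.0205 over 21794 called tiles, where 2.14% passed in that direction). There the Th1 input had 14 positions and the Th2 input 2, and the Ezh2 positions alone, 3.35-fold higher in Th2 (1.36 to 12.1), did not pass the exact binomial test (adjusted p = 0.0569). The one from 96977001 did not (4.04-fold, 0.819 to 26.0, exact test, adjusted p = 0.273), although its Ezh2 positions were 4.90-fold higher in Th2 (1.91 to 21.2, exact binomial test, adjusted p = 0.0116). Neither kilobase passed both tests. By that test 5.34% of called kilobases were higher in Th2.

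Over the 12156 tiles of 5 kb called in Th2, the median fold was 2.65 in Th2 and 2.05 in Th1, and 675 of them (5.55%) were below 1-fold in Th1. The tile of the Tbx21 5′ end was among these, and 50 of the 12156 (0.411%) had a Th1 fold as low as it had. Its Th2 fold was moderate among them, with 40.2% at least as high. The low Th1 fold of this tile depended in size on the background, running from 0.548 to 0.885 under the alternatives run. After scaling, the Th1 input there was 1.34 times the Th2 input, with an interval that included 1 (0.860 to 2.15). The values of the called tiles are a description, since the call in Th2 used the same Th2 counts.

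**Figure D3:**
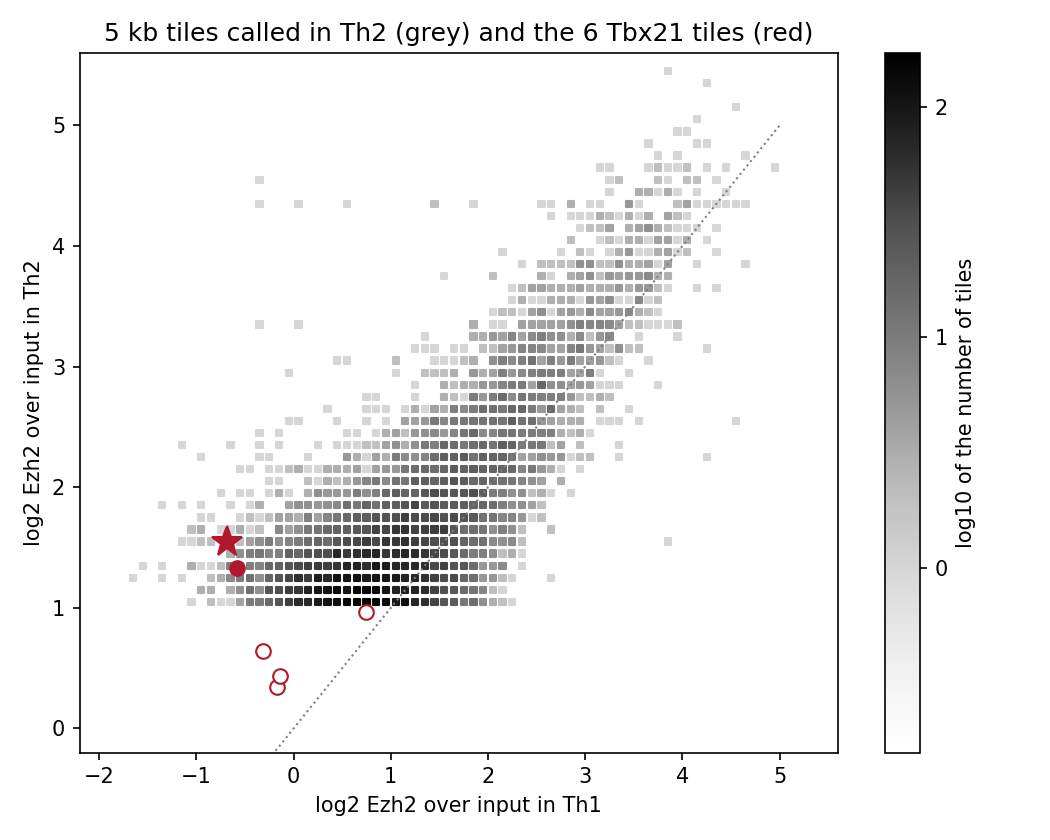
Ezh2 over input on a log2 scale in Th1 (horizontal) and Th2 (vertical) for the 12156 tiles of 5 kb called in Th2 (grey, darker for more tiles, on a log10 colour scale) and the 6 Tbx21 tiles (red, filled where called, star for the tile of the 5′ end, dotted line for equal folds). The star lies at 2.91-fold in Th2 and 0.621-fold in Th1, left of most grey tiles.

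The Tbx21 window was then set beside its surroundings, 34 windows of 30 kb within 500 kb on each side. In 27 of them Ezh2 was called in neither cell type, and pooling them gave 1.18 for Th1 and 1.21 for Th2. The Tbx21 window lay under the pooled value in Th1 (0.887), as low as 4 of the 27, and above it in Th2 (1.90). Over all 34 windows, called ones included, the Th2 fold was at least as high as that of Tbx21 in 7. Of the 34, 7 were called in Th1 and 7 in Th2. Across the 34, the Th2 fold divided by the Th1 fold had a median of 1.01, with a lowest value of 0.736.

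Of the 34 surrounding windows, 1 passed the conditional exact test between the cell types. It was the window next to Tbx21 on the upstream side, from 96985001 to 97015000, where Tbkbp1, which encodes an adaptor of the kinase TBK1, is the next gene by order. It held 184 Ezh2 and 315 input positions in Th1, and 484 and 222 in Th2. The Th1 fold there was 0.843 and the Th2 fold 1.87, a difference of 2.22-fold (1.74 to 2.86, conditional exact test, adjusted p = 5.80e-07 over 84195 windows). The next highest of the 34 had a difference of 1.38-fold, on the other side of Tbx21 from 96925001 (1.06 to 1.81, exact test, adjusted p = 0.338). At the scale of 30 kb, Ezh2 over input was thus higher in Th2 at Tbx21 and in the next window upstream. In the window from 97015001 the Th2 fold was 0.916. Of the 6 tiles of 5 kb in that upstream window, 2 were called in Th2, where 2.50% of all tested tiles were. One ran from 96985001 to 96990000, with 73 Ezh2 and 31 input positions in Th2 (2.01-fold) and a Th1 fold of 0.762. The other ran from 97005001 to 97010000, with 81 and 30 (2.30-fold) and a Th1 fold of 1.12. Neither passed the conditional exact test between the cell types (adjusted p = 0.338 and 0.572 over all tested tiles), and the other 4 did not either, with adjusted p from 0.309 to 0.941.

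**Figure D4:**
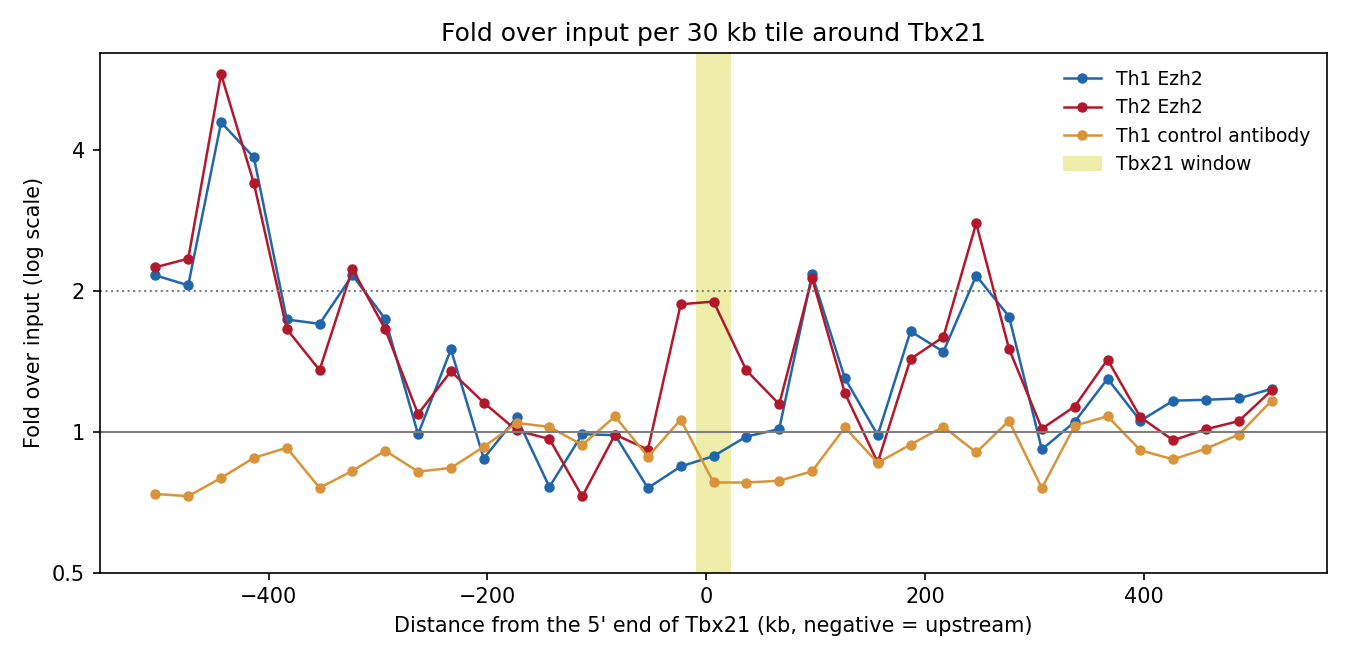
Fold over input (log scale) per window of 30 kb, by distance from the 5′ end of Tbx21 in kb (negative values upstream), for Ezh2 in Th1 and Th2 and the control antibody in Th1, with the Tbx21 window shaded and lines at 1-fold and 2-fold. The Th1 and Th2 lines run close together, and they part at Tbx21 and the next window upstream, at 0.887 and 0.843 in Th1 against 1.90 and 1.87 in Th2.

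For scale, the widest region called on chromosome 11 in Th2, 78 kb from 96108001 to 96186000 and 769 kb from the Tbx21 window, had an Ezh2 fold of 9.0 in Th1 (8.26 to 9.82) and of 10.6 in Th2 (9.72 to 11.6). Ezh2 at Tbx21 in Th2 was thus weaker than in that region, which was high in both cell types.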

How the data were processed

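Deposited files list genomic intervals with the count of reads on each. Per the file contents these deposited counts are whole numbers without normalization or strand. Per the submitters' processing notes, CASAVA and the build mm9 were used; how reads were aligned, extended and filtered is not given in the sources used here. Fragments of 170 to 250 bp were taken from a gel, with 18 PCR cycles and 36 sequencing cycles, per the labels' protocols.

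Each interval was counted once at its midpoint, on chromosomes 1 to 19 and X, in tiles of 1, 5 and 30 kb laid so that a 30 kb tile is the Tbx21 window. A tile needed at least 10 positions in the pair of libraries compared. Ezh2 was tested against the input of the same cell type by one-sided exact binomial tests, and the cell types by two-sided exact binomial and conditional exact tests, each with Benjamini-Hochberg adjustment over all tiles of a size (or, where a tile was called, over all called tiles). Python 3.11.15, numpy 2.4.6 and scipy 1.17.1 were used. The steps were also run on simulated counts with counting error only, which hold no difference between cultures or sequencing runs. Reads carry no molecular identifiers, so PCR copies cannot be told from separate fragments at the same position. With 1 library per group, intervals cover counting error only. Tiles named are that of the 5′ end, those called, those beside them and the highest in each cell type. The gene and the window were chosen with earlier results of these data known. Genes of like pattern were not sought, as genes were not placed on mm9.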

Additional observations from a re-analysis of the deposited data

Results flagged for a closer look

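At 5 tiles Ezh2 over input differed between Th1 and Th2 by the conditional exact test, each with Th2 higher. The difference was 16.0-fold at the kilobase from 96978001, which rested on 2 Th2 input positions, and 4.69-fold and 3.78-fold at the 5 kb tiles from 96975001 and 96960001. It was 2.14-fold over the 30 kb window and 2.22-fold in the window beside it, from 96985001. The kilobase was adjusted over called tiles only, and the call uses the same counts and favours a difference. The 5 kb tile from 96960001 passed over called tiles but not over all tested tiles (conditional exact test, adjusted p = 0.161). These tiles overlap or adjoin and are not independent. With 1 library per group, cell type, pull-down and sequencing run cannot be told apart.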

How the results depend on the processing

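Higher Ezh2 in Th2 held its direction and its test over the 30 kb window under all 5 alternatives run, with Th1 over Th2 between 0.519 and 0.589 for Ezh2 positions and between 0.419 and 0.545 for Ezh2 over input. At the 5 kb tile of the 5′ end, Ezh2 positions passed the test between the cell types in 6 of 6 (0.236 to 0.390), and Ezh2 over input in 5 of 6. With tiles moved by 0.5 of their size the tile ran from 96972501 and its ratio of 0.433 no longer passed (exact test, adjusted p = 0.478, over all tested tiles because it was not called; the 6 alternatives ran from 4.09e-09), and its Th2 fold of 1.79 was no longer called. The bounds of 4-fold and 0.001 ended that call as well (2.91-fold). The Th1 fold over the window turned from 0.887 to 1.01 with the Th2 input, 1.14 with the control antibody as background and 1.26 with background scaling, and was called in none of these, though it passed the exact test alone under background scaling (adjusted p = 0.0253). The Th2 fold over the window became a call only with background scaling (2.67), where calls over the genome rose from 1671 to 5436. The 2 kilobases called in Th2 became 10 with all reads, where calls over the genome rose from 17075 to 119127. Background scaling gave 7 (49968 over the genome). They were 1 with the Th1 input (17858), 1 without the minimum of positions (14658) and 1 with both cell types together (27832). Moved tiles gave 0 (17105) and the strict bounds 0 (8836). With tiles of 2 kb they were 3 (15105). Calls at Tbx21 and over the genome thus rose together with all reads and with background scaling. At 5 kb, background scaling gave 4 calls in Th2 and 1 in Th1. Calls over the genome then rose from 12156 to 52635 in Th2 and from 10943 to 56459 in Th1. The strict bounds gave 0 at 5 kb in Th2, with 2600 over the genome. The cause of these changes was not tested. The pooled libraries, the surroundings as the expected ratio and adjustment over all tested tiles were added after seeing the data. No paired analysis was possible because every group consisted of 1 library.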

Other observations

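Reads per distinct position in the Tbx21 window were 2.12 for Th1 Ezh2 and 1.91 for Th2 Ezh2, 1.25 and 1.72 in their inputs and 1.55 in the Th1 control antibody library. The whole libraries had 2.25, 2.04, 1.30, 1.77 and 1.67, and the largest count of reads on 1 position of the window was 8.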
